A study of Homo sapiens with 8 samples.

Results

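LARP6 eCLIP sites were examined on 3 mRNAs that carry many peaks, LBH, MEGF6 and RNPEPL1, in human hepatic stellate cells. All regions whose midpoint lay within the annotated bounds of 1 of these genes, on its strand, were taken from 4 peak lists of single libraries and from 2 lists that the authors made from both replicates of a condition (reproducible peaks). This gave 347 of 178461 regions in all. They comprised 310 tested clusters in the 4 libraries and 37 reproducible peaks. The 3 genes were chosen by their number of peaks in these same lists, so their counts and folds describe them and are no test. The midpoint rule gives no threshold between members and other regions.

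The TGFβ1 cells were given 5 ng/ml of TGFβ1, the cytokine known to turn stellate cells into collagen-producing myofibroblasts. The control cells were called untreated in one label and DMSO in another, and the labels do not settle if they received vehicle. Both were wild-type cells labelled HSCs, a line name that does not say which donor or line they came from, grown in DMEM with serum and crosslinked with ultraviolet light at 254 nm and 400 mJ/cm2. Each condition had 2 libraries immunoprecipitated with anti-LARP6 and 2 size-matched inputs, 8 samples in all, and the inputs enter only through the fold that the authors deposited for each cluster. The labels name no separate culture for each replicate, and the spread between replicates may therefore be technical. All 11 stellate cell markers examined had a tested cluster in each library, and none of 5 hepatocyte or 4 endothelial markers had one in any. Of 4 cholangiocyte and 5 macrophage markers, 2 and 1 had a tested cluster in each library.

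LARP6, a member of the La-related family of RNA-binding proteins, is best known for binding a stem-loop near the start of type I collagen mRNAs in collagen-producing cells. In eCLIP, RNA crosslinked to the protein is trimmed, pulled down and sequenced beside input RNA from the same size range of the gel. LBH encodes a small transcriptional cofactor first described in limb bud and heart development in the mouse and known as a WNT target. MEGF6 encodes a protein with many EGF-like repeats, a module typical of extracellular and cell-surface proteins. RNPEPL1 encodes a relative of arginyl aminopeptidase RNPEP, of the family of metal-dependent enzymes that remove residues from the start of peptides.

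Each tested cluster carried the authors' log2 fold over input and −log10 p. Enriched clusters are those that reached 3 in both values, the log2 fold and the −log10 p. TGFβ1 replicates 1 and 2 held 31137 and 54536 tested clusters, and control replicates 1 and 2 held 51273 and 39880. Of these, 2.69% and 3.64% were enriched in the TGFβ1 libraries and 1.21% and 2.09% in the control libraries. The read depth is unknown, because the lists hold no read counts. All coordinates are 1-based on GRCh38, and distances are from the RefSeq gene bounds to the nearer edge of a region.

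All 3 mRNAs carried reproducible LARP6 peaks in both conditions. The peaks of the 2 lists lay at 11 separate places, of which 7 had a peak in both lists. LBH had 10 peaks in the TGFβ1 list and 2 in the control list, MEGF6 had 8 and 2, and RNPEPL1 had 9 and 6. The whole lists differed in length too, with 1008 peaks in TGFβ1 and 627 in control. Among the 393 genes with a peak in the TGFβ1 list the median was 2 peaks, and 6 genes had more peaks than LBH. COL1A2, a chain of type I collagen, led this list with 53 peaks. Among the 230 genes of the control list the median was 1 peak, and 10 genes had more than RNPEPL1. In that list 57 genes had more peaks than LBH and MEGF6.

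The number of peaks depended in part on how a stretch was divided. Abutting peaks were therefore merged where at most 20 nt apart. LBH then had 3 sites in the TGFβ1 list and 2 in the control list, MEGF6 had 5 and 2, and RNPEPL1 had 3 in each. The peaks covered 391 nt of LBH in the TGFβ1 list and 136 nt in the control list. They covered 308 and 89 nt of MEGF6, and 256 and 233 nt of RNPEPL1. RNPEPL1 thus had more peaks in the TGFβ1 list over the same 3 sites and nearly the same length. LBH and MEGF6, in contrast, also had sites that were in the TGFβ1 list alone. Counting sites with a cluster in all 4 libraries, 3 of 10 here and 267 of 597 in the series were in that list alone.

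No cluster of any library lay on the opposite strand within the 3 genes, beside the 310 on the gene strand. RefSeq shows no other gene within LBH or RNPEPL1. A lncRNA and the microRNA gene MIR551A lie within the bounds of MEGF6, both further from its 3′ end than any tested cluster.

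LBH lies on chromosome 2 (30231534 to 30260028, plus strand, 28495 nt). TGFβ1 replicates 1 and 2 had 13 and 20 tested clusters in it, and control replicates 1 and 2 had 7 and 10. Of these, 6 and 13 were enriched in the TGFβ1 libraries and 2 and 4 in the control libraries, which is 46.2% and 65.0% against 28.6% and 40.0%. Over all tested clusters of each library these shares were the 2.69% and 3.64% in TGFβ1 and 1.21% and 2.09% in control libraries given above. The choice of genes by peak number fixes this contrast. The shares of the TGFβ1 libraries were both above those of the control libraries. By the fold limit alone, without the −log10 p limit, the groups overlapped. Then 6 of 13 and 13 of 20 clusters counted in TGFβ1 replicates 1 and 2, against 2 of 7 and 5 of 10 in control replicates 1 and 2. The 95% Wilson intervals of the enriched shares were wide and cover counting error only. They ran from 23.2% to 70.9% and 43.3% to 81.9% in the TGFβ1 libraries. In the control libraries they ran from 8.22% to 64.1% and 16.8% to 68.7%.

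The enriched clusters of LBH all lay in the last stretch of the gene, at most 1556 nt from its 3′ end. Site 1 (30258745 to 30258811) lay 1217 nt from that end, site 2 (30258896 to 30259057) lay 971 nt from it and site 3 (30259185 to 30259346) lay 682 nt from it. The annotation used here gives no exons, so their place within the transcript is not given.

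Site 2 held the highest LBH peak. Its highest log2 fold was 5.75 and 7.37 in TGFβ1 replicates 1 and 2 and 3.77 and 5.62 in control replicates 1 and 2. The −log10 p of these clusters was 46.9 and 150 in the TGFβ1 libraries and 7.40 and 15.1 in the control libraries. Both TGFβ1 libraries were above both control libraries in fold, though TGFβ1 replicate 1 was only slightly above control replicate 2. The means were 6.56 ± 1.14 in TGFβ1 and 4.69 ± 1.31 in control libraries (SD, n = 2 each). Site 2 was split into 6 abutting peaks in the TGFβ1 list, against 1 peak of 79 nt in the control list.

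Site 3 of LBH separated the conditions more widely relative to the replicates. Its log2 fold was 5.26 and 5.91 in the TGFβ1 libraries and 3.75 and 3.43 in the control libraries. The means were 5.59 ± 0.46 in TGFβ1 and 3.59 ± 0.22 in control libraries (SD, n = 2 each), and the groups did not overlap. Site 1 reached 3.14 and 3.84 in the TGFβ1 libraries (log2 fold), while neither control library had a tested cluster there. TGFβ1 replicate 2 had 3 further enriched clusters outside the 3 sites, of which that at 30259058 to 30259125 abutted site 2 with a log2 fold of 5.69.

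The 5′ end of LBH was also covered by a tested cluster in every library, but in none of them was it enriched. The clusters nearest the 5′ end began 34 and 27 nt from it in TGFβ1 replicates 1 and 2 and 40 and 13 nt from it in control replicates 1 and 2. Their log2 folds were 2.08 and 2.12 in the TGFβ1 libraries and -0.79 and 0.11 in the control libraries. Both TGFβ1 values were above both control values, with a −log10 p of 3.13 and 6.17 in the TGFβ1 libraries and 0 and 0.0513 in the control libraries. Neither reproducible list had a peak there. How often other clusters outside those lists show this order was not computed, so a difference with TGFβ1 was not tested. The start of this stretch is printed because LARP6 is known for sites near the start of collagen mRNAs. It runs from the first base of the TGFβ1 replicate 2 cluster to the last base of the RefSeq promoter window (GRCh38.p14, chr2:30231561-30231583, plus strand). Capitals mark the 10 printed bases that lie in the clusters of all 4 libraries. The stretch shared by the 4 clusters continues past the window to base 30231671. The control replicate 2 cluster begins upstream of the printed bases, at 30231547.
LBH start of the 5′ cluster: ttgtgtccaccttGCCGACGTCG
The promoter windows of MEGF6 and RNPEPL1 held no tested cluster, and sequences of the 11 sites were not used here.

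MEGF6 lies on chromosome 1 (3487951 to 3624786, minus strand, 136836 nt). It had by far the most tested clusters of the 3 genes, 76 and 68 in TGFβ1 replicates 1 and 2 and 37 and 27 in control replicates 1 and 2. Few of them were enriched, 8 and 7 in the TGFβ1 libraries and 3 and 2 in the control libraries. These were 10.5% and 10.3% in the TGFβ1 libraries and 8.11% and 7.41% in the control libraries. The TGFβ1 shares were above the control shares by less than the width of any of their Wilson intervals. The narrowest interval, in TGFβ1 replicate 1, ran from 5.43% to 19.4%. By the fold limit alone the groups overlapped. Then 9 of 76 and 7 of 68 clusters counted in TGFβ1 replicates 1 and 2, against 3 of 37 and 3 of 27 in control replicates 1 and 2.

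All tested clusters of MEGF6 lay in the part of the gene towards its 3′ end. The one nearest the annotated 5′ end was 93384 nt from it. The RefSeq promoter window places a transcript start at 3611508, inside the gene bounds and likewise far from any tested cluster. The 5 sites were spread over 9370 to 14047 nt from the 3′ end, with 3 of them in the TGFβ1 list alone.

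Site 3 of MEGF6 (3499845 to 3499925) had the highest fold. It reached 5.53 and 5.53 in TGFβ1 replicates 1 and 2 and 3.65 and 4.31 in control replicates 1 and 2. The TGFβ1 libraries were nearly equal in fold and both stood above the control libraries. Their means were 5.53 ± 0.0038 in TGFβ1 and 3.98 ± 0.46 in control libraries (SD, n = 2 each). The −log10 p was 13.2 and 39.0 in the TGFβ1 libraries and 3.33 and 5.49 in the control libraries, so the control calls were near the limit of 3.

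Site 5 (3497321 to 3497361) was the nearest to the 3′ end. Among the 10 sites of these genes with a cluster in the 4 libraries, its means differed the most between conditions (by 2.14 in log2 fold). Its log2 fold was 4.60 and 5.20 in the TGFβ1 libraries and 2.25 and 3.26 in the control libraries. Control replicate 2 was past the fold limit with a −log10 p of 2.30, short of the limit for p, so neither control library was called enriched.

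The other MEGF6 sites had lower folds. Site 2 (3500632 to 3500681) was enriched in all 4 libraries, with log2 folds of 4.01 and 4.04 in TGFβ1 and 3.60 and 3.85 in control libraries. At site 1 (3501998 to 3502104) the values were 3.27 and 3.57 in TGFβ1 and 2.57 and 2.96 in control libraries, with −log10 p values past 3 in each. Site 1 therefore missed the call in control by its fold alone. Site 4 (3498370 to 3498407) was at the limit in TGFβ1 too, with 3.12 and 2.86, against 1.96 and 2.07 in control libraries, and it was enriched in TGFβ1 replicate 1 alone.

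RNPEPL1 lies on chromosome 2 (240568484 to 240581372, plus strand, 12889 nt). It had 15 and 15 tested clusters in TGFβ1 replicates 1 and 2 and 12 and 10 in control replicates 1 and 2. Of these, 9 and 11 were enriched in the TGFβ1 libraries and 6 and 7 in the control libraries. The shares were 60.0% and 73.3% in the TGFβ1 libraries and 50.0% and 70.0% in the control libraries, and the groups overlapped.

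The highest RNPEPL1 peak lay in site 3 (240578487 to 240578604), 2768 nt from the 3′ end. The log2 fold there was 6.56 and 7.58 in TGFβ1 replicates 1 and 2 and 5.65 and 6.35 in control replicates 1 and 2. The means were 7.07 ± 0.72 in TGFβ1 and 6.0 ± 0.49 in control libraries (SD, n = 2 each). The TGFβ1 libraries were both above the control libraries, replicate 1 by little.

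Site 2 of RNPEPL1 (240573773 to 240573881), 5289 nt from the 5′ end, did not separate the conditions. Its log2 fold was 5.01 and 7.61 in the TGFβ1 libraries and 5.32 and 6.06 in the control libraries. TGFβ1 replicate 1 was the lowest of the 4 libraries and TGFβ1 replicate 2 the highest, so the spread within TGFβ1 exceeded the difference of means. Site 1 (240573233 to 240573262) had 4.14 and 5.63 in TGFβ1 and 3.88 and 4.26 in control libraries, again with TGFβ1 replicate 1 among the control values. All 3 sites of RNPEPL1, each with a peak in both lists, were enriched in every library.

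Near the 5′ end of RNPEPL1, 1 cluster was enriched in 1 library. In TGFβ1 replicate 1 the cluster at 240568583 to 240568677, 99 nt from the 5′ end, had a log2 fold of 3.79 and a −log10 p of 3.20. The cluster nearest the 5′ end had 2.57 in TGFβ1 replicate 2 and 1.38 and 0.68 in control replicates 1 and 2, none of them enriched. The −log10 p of these clusters was 4.37 in TGFβ1 replicate 2 and 0.17 and 0.26 in control replicates 1 and 2. That of TGFβ1 replicate 2 therefore missed the call by its fold alone. The cluster of control replicate 2 began at 240568690, past the end of the enriched cluster, so it is not the same place.

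**Figure D1:**
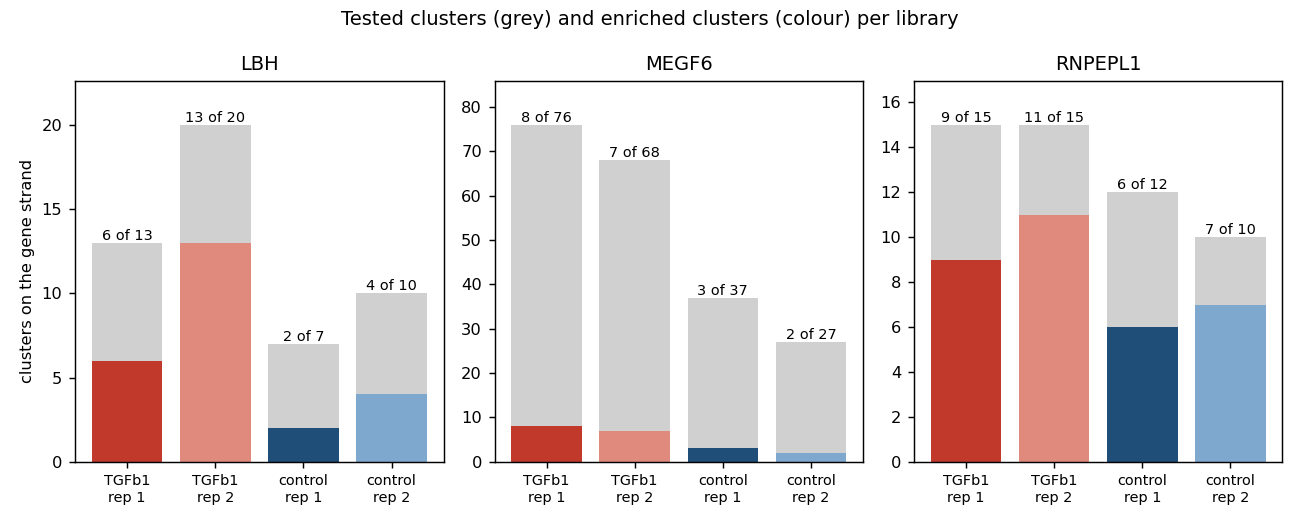
Tested clusters (grey bars, y axis, number per library) and enriched clusters (coloured bars) of LBH, MEGF6 and RNPEPL1 in the 2 TGFβ1 and 2 control libraries, with both numbers printed above each bar. MEGF6 had 76 and 68 tested clusters in TGFβ1 and 37 and 27 in control libraries with few enriched, while most RNPEPL1 clusters were enriched in the TGFβ1 libraries and in control replicate 2.

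**Figure D2:**
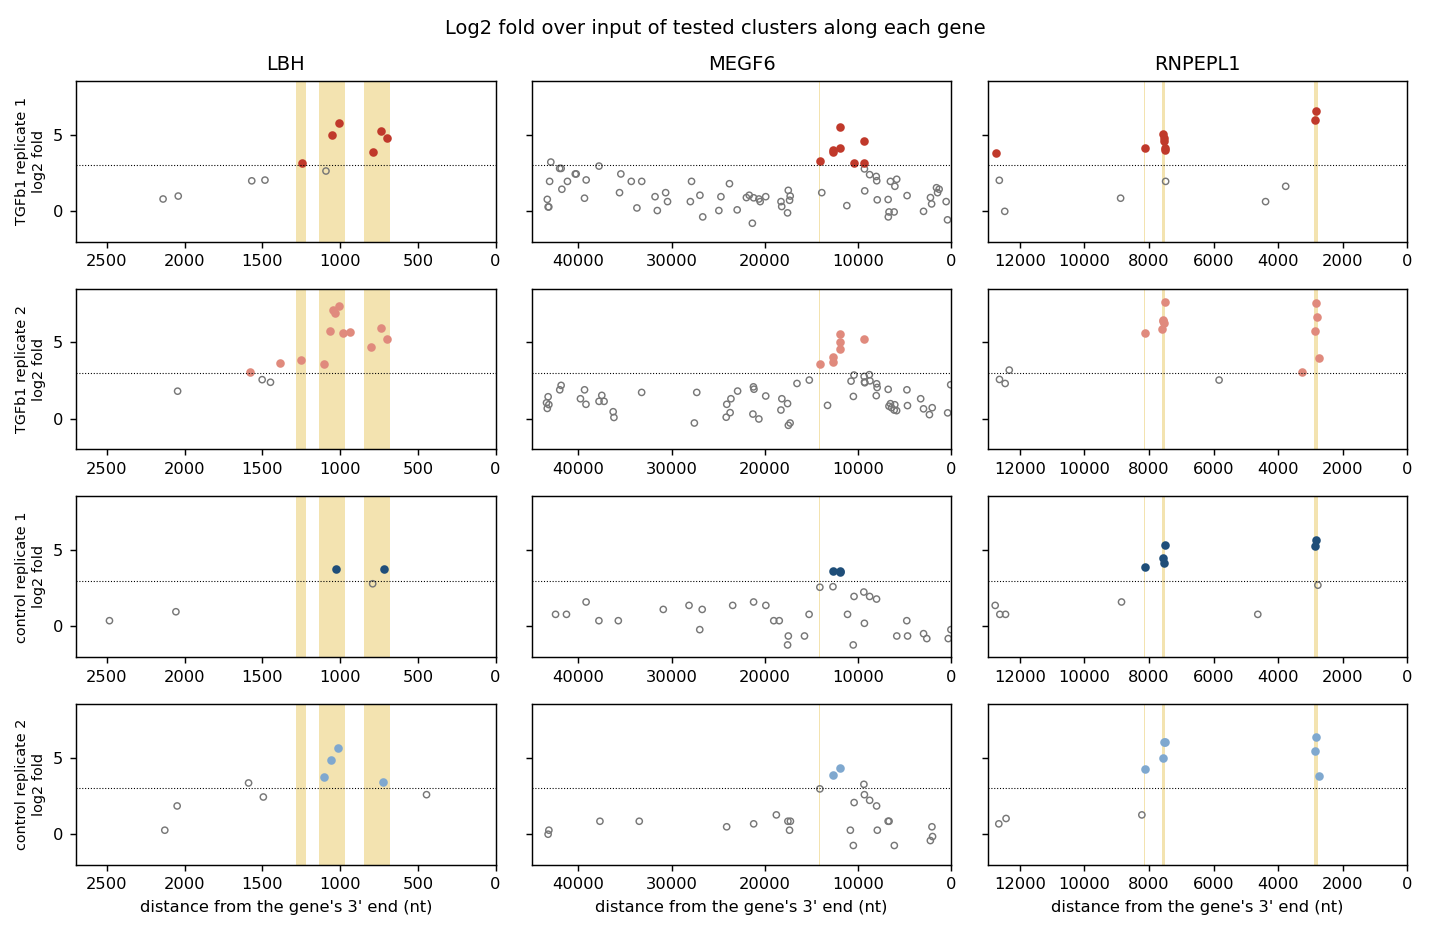
Log2 fold over input (y axis) of each tested cluster against its distance from the 3′ end of the gene in nt (x axis, 5′ to the left), with 1 row per library and 1 column per gene. Filled points are enriched clusters, open points are other tested clusters, pale bands are the reproducible sites of either list and the dotted line is the fold limit of 3. For LBH only the part next to the 3′ end is drawn, so the clusters at its 5′ end are left out. Of the 11 sites, 7 were enriched in all 4 libraries, the same 7 that had a peak in both lists. The share enriched in all 4 libraries was not computed for all sites of the series.

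Read across the 3 genes, the tested clusters of RNPEPL1 stood high as a whole and those of MEGF6 did not. The median log2 fold of RNPEPL1 clusters was 3.98 and 5.71 in TGFβ1 replicates 1 and 2 and 3.29 and 4.63 in control replicates 1 and 2. For LBH it was 2.62 and 3.73 in the TGFβ1 libraries and 0.96 and 2.97 in the control libraries. For MEGF6 it was 1.12 and 1.37 in the TGFβ1 libraries and 0.79 and 0.85 in the control libraries. Over all tested clusters of a library the median was 0.94 and 0.82 in TGFβ1 and 0.38 and 0.85 in control. In every library the MEGF6 median was the closest of the 3 genes to that of the whole library, and its peaks were a few high clusters among many that were not.

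**Figure D3:**
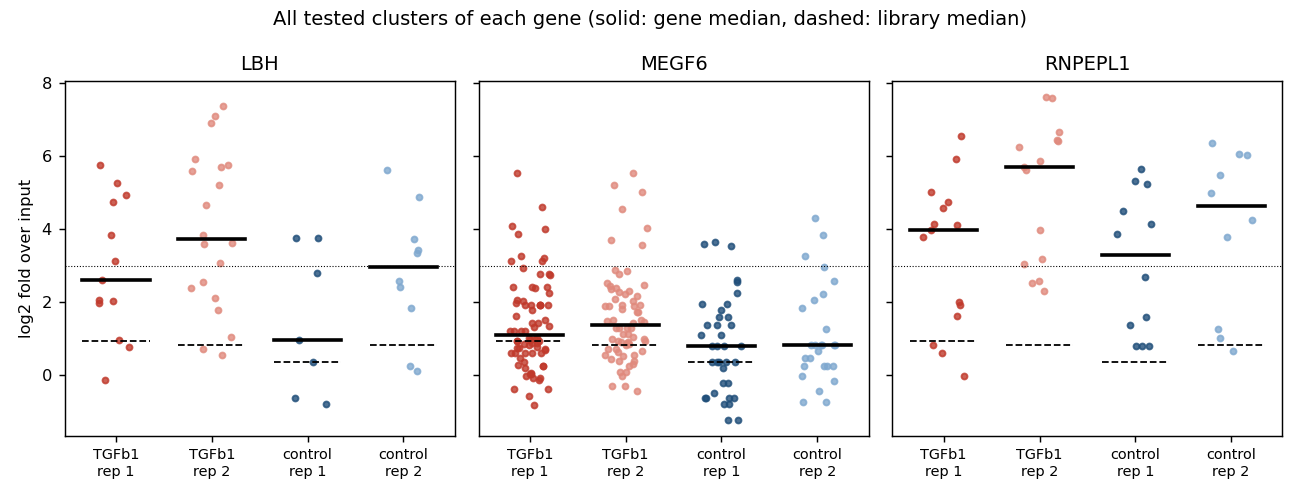
Log2 fold over input (y axis) of every tested cluster of each gene, 1 point per cluster, in the 2 TGFβ1 and 2 control libraries. The solid bar is the median of the gene, the dashed bar the median of all clusters of that library and the dotted line the fold limit of 3. The solid bars of RNPEPL1 lie above the limit in all 4 libraries and those of MEGF6 stay between 0.79 and 1.37.

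The comparison of conditions asks whether LARP6 sites on these mRNAs differed with TGFβ1. At the 10 sites with a cluster in all 4 libraries, the mean log2 fold was higher in TGFβ1 than in control at 10, by 0.30 to 2.14 with a median of 1.02. Both TGFβ1 libraries were above both control libraries at 8 of the 10, and both were below at 0 of the 10. Over the whole series 47.9% of 597 reproducible sites had the first order and 10.4% the reverse, and the median difference was 0.91 (quartiles 0.13 and 1.57). Sites entered through either list: 3 of the 10 and 267 of the 597 were in the TGFβ1 list alone, and 59 of the 597 in the control list alone, so these entered through the condition in which they were called. Of the 7 sites with a peak in both lists, a restriction added after the values were seen, 5 were higher in both TGFβ1 libraries, beside 35.1% of 271 such sites of the series, and the median differences were 1.07 and 0.55. The sites of 1 gene share libraries and RNA and are not replicates. A site's value is that of its highest cluster, and the number of clusters over a site differed between libraries. LBH site 2 had 3 and 6 in TGFβ1 and 1 and 3 in control libraries, while RNPEPL1 site 3 had 2 and 3 against 3 and 3. The part of this in the differences at the 10 sites was not tested. The highest peak of each gene was taken over both lists and came from the TGFβ1 list each time, which favours a higher value in TGFβ1.

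With 2 libraries per condition the smallest two-sided p of an exact permutation test is 0.333. At the highest peak of LBH, MEGF6 and RNPEPL1 the log2 fold differed by 1.87, 1.60 and 1.07 between TGFβ1 and control, each with an exact permutation p of 0.333. The MEGF6 value was 1.0 when overlapping clusters were averaged by width. For the enriched share the differences were 21.3, 2.65 and 6.67 percentage points, with exact permutation p values of 0.333, 0.333 and 0.667. Without TGFβ1 replicate 2 the RNPEPL1 share difference was 0, and without control replicate 1 it was -3.33. The LBH fold difference was 1.06 and 0.94 without these libraries. The p values rest on the same measures that chose the genes and support nothing by themselves. Among 816 genes of the series with at least 10 tested clusters and an enriched one, 20.7% had a higher enriched share in both TGFβ1 libraries than in both control libraries, as LBH and MEGF6 did. By the fold limit alone, without the −log10 p limit, the shares of the conditions overlapped in both genes. They also overlapped with clusters of at least 20 nt alone. The differences were then 15.0 points in LBH and 2.37 points in MEGF6 (exact permutation p of 0.667 each). A fold limit of 2 gave a difference of 40.3 points in LBH, 7.38 in MEGF6 and 13.3 in RNPEPL1.

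Replicate 2 tended to give the higher folds in both conditions. It was above replicate 1 at 9 of the 10 sites in TGFβ1 and at 9 of the 10 in control. Over all sites of the series this held for 75.4% in TGFβ1 and 70.5% in control. The median difference of replicate 2 minus replicate 1 at the 10 sites was 0.63 in TGFβ1 and 0.53 in control, beside a median difference of 1.02 between conditions.

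**Figure D4:**
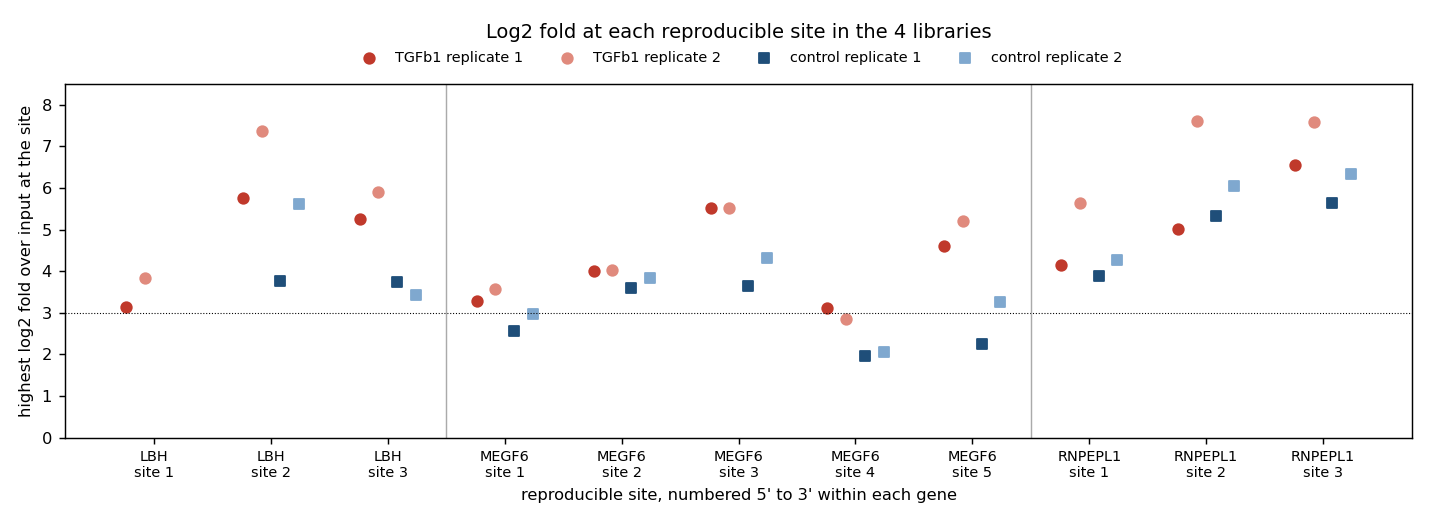
Highest log2 fold over input (y axis) at each of the 11 reproducible sites, numbered 5′ to 3′ within each gene (x axis). Circles are TGFβ1 replicates 1 and 2, squares are control replicates 1 and 2 and the dotted line is the fold limit of 3. The circles lie above the squares at 8 of the 10 sites with values in all libraries, and at sites 1 and 2 of RNPEPL1 they overlap.

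The 3 genes also had more tested clusters relative to the library in TGFβ1. Per 10000 tested clusters, MEGF6 had 24.4 and 12.5 in TGFβ1 replicates 1 and 2 and 7.22 and 6.77 in control replicates 1 and 2. LBH had 4.18 and 3.67 in the TGFβ1 libraries and 1.37 and 2.51 in the control libraries. RNPEPL1 had 4.82 and 2.75 in the TGFβ1 libraries and 2.34 and 2.51 in the control libraries. Its value in TGFβ1 replicate 2 was only slightly above that in control replicate 2. For each of the 3 genes both TGFβ1 values were above both control values. Of 4023 genes with at least 10 tested clusters, 31.0% showed this order and 24.4% the reverse. The level of these mRNAs was not measured here, so its part in the number of tested clusters was not tested. In such bulk samples more cells with an RNA and more RNA per cell cannot be told apart.

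The edges of several sites fell at nearly the same base in every library. The 3′ edge of RNPEPL1 site 2 was base 240573881 in all 4 libraries, and its 5′ edge was 240573773 in TGFβ1 replicate 1 and 240573774 in the other libraries. At MEGF6 sites 3 and 5 the 5′ edges differed by 1 nt over the 4 libraries, and so did the 3′ edges at MEGF6 site 2 and RNPEPL1 site 1. In all, 5 of 10 sites had an edge within 2 nt in all 4 libraries, beside 36.7% of 597 sites of the series. At the identical base in all 4 libraries it was 1 of 10, beside 13.6%, and within 5 nt it was 7 of 10, beside 53.3%. The LBH sites had none, with edges that ranged over 17 to 90 nt. The tolerance was chosen after the edges had been seen, and whether these edges are exon ends was not tested.

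Related genes were read against all protein-coding genes tested in both libraries, of which 7.09% of 5219 had a reproducible peak in TGFβ1 and 3.87% of 5352 in control. Among aminopeptidases, RNPEPL1 was the only gene with a peak of 8 tested in both TGFβ1 libraries and of 9 tested in both control libraries. RNPEP, the enzyme it is named after, had 1 and 6 tested clusters in TGFβ1 libraries and 1 and 3 in control libraries, none enriched. LNPEP, a membrane aminopeptidase, had 1 enriched cluster, in TGFβ1 replicate 2.

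Of the EGF-repeat genes, 2 of 8 tested in TGFβ1 and 2 of 7 tested in control had a reproducible peak, in each case MEGF6 and NOTCH2, a receptor with EGF-like repeats. NOTCH2 had 4 peaks in the TGFβ1 list and 1 in the control list. Its highest log2 folds were 4.71 and 4.85 in TGFβ1 replicates 1 and 2 and 3.75 and 4.35 in control replicates 1 and 2.

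Of the WNT pathway genes, 3 of 19 tested in TGFβ1 had a reproducible peak (LBH, CTNNB1 and FZD2) and 2 of 20 tested in control (LBH and FZD2). CTNNB1, which encodes β-catenin, had highest log2 folds of 4.48 and 3.72 in TGFβ1 and 2.70 and 1.58 in control libraries. FZD2, a WNT receptor gene, had 3.77 and 5.34 in TGFβ1 and 5.12 and 4.78 in control libraries. Among limb and mesenchyme regulators none of 6 tested in TGFβ1 and 1 of 10 tested in control had one, the transcription factor gene TWIST2. Without the members, 0 of 7 aminopeptidases, 1 of 7 EGF-repeat genes and 2 of 18 WNT genes had a peak in TGFβ1, and 0 of 8, 1 of 6 and 1 of 19 in control.

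Likeness to the members was measured as the Euclidean distance between the log2 of enriched clusters plus 1 over the 4 libraries, among 977 other genes. The nearest to LBH were CAVIN1 (distance 0.60), RRBP1 (0.64) and LTBP1 (0.81). CAVIN1, a coat protein gene of caveolae, had 5 and 9 enriched clusters in TGFβ1 and 2 and 5 in control libraries. The nearest to MEGF6 were PCSK1N (0.72), RRBP1 (0.94) and NFIX (0.94). PCSK1N, an inhibitor gene of prohormone convertase, had 5 and 7 enriched of 5 and 7 tested clusters in TGFβ1 libraries and 3 and 3 of 4 and 3 in control libraries, so a like number of enriched clusters came from far fewer tested ones than in MEGF6. The nearest to RNPEPL1 were COL5A1 (0.41), SHISA5 (0.73) and FBN1 (0.96). COL5A1, a type V collagen chain, had 7 and 11 enriched clusters in TGFβ1 and 7 and 8 in control libraries, out of 172 and 165 tested in TGFβ1 and 139 and 151 in control.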

How the data were processed

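The processing notes of the submitters name cutadapt, STAR, UMI-tools and GRCh38, without versions or order. How peaks were called, set against input and joined across replicates is not given in the sources used here. No header stands in the deposited files. By their range, one column holds the authors' log2 fold of immunoprecipitate over size-matched input. The other holds the authors' deposited −log10 p-value, with a cap at 400. Both served to describe, filter and rank clusters.

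A region was assigned at its midpoint within RefSeq bounds (GRCh38.p14, 59788 genes), on the strand given by the RefSeq promoter table where it had the gene (27304 genes). Where several genes remained, small RNA genes came before protein-coding ones and then the shortest. Sites are the peaks of both lists merged at gaps of at most 20 nt. A site's value in a library is the highest log2 fold among clusters overlapping it by at least 1 nt on the strand. Exact permutation tests over libraries were two-sided. Wilson intervals are at 95%. Named genes were the 3 members, list genes with a reproducible peak, the 3 most alike per member, and collagens for scale. RNPEP and LNPEP were named after their values were seen. The members and lists were chosen with earlier results of these data known. The code was tested on simulated data. Software was Python 3.11.15 with pandas 2.3.3, NumPy 2.4.6, matplotlib 3.10.9 and SciPy 1.17.1.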

Additional observations from a re-analysis of the deposited data

How the results depend on the processing

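The difference in the highest peak between TGFβ1 and control kept its direction in all 3 genes under every alternative run (another site value, a widened peak, the peak of either list, each library left out), with 1.0 in place of 1.60 in MEGF6 for the width-weighted mean. With a library left out it ranged from 0.94 to 2.79 in LBH, 1.22 to 1.98 in MEGF6 and 0.56 to 1.58 in RNPEPL1. With a library left out the difference in enriched share, in percentage points, ranged from 11.9 to 30.7 in LBH, from 2.30 to 3.0 in MEGF6 and from -3.33 to 16.7 in RNPEPL1. The RNPEPL1 value was 0 without TGFβ1 replicate 2 and -3.33 without control replicate 1, so its direction rests on single libraries. With a fold limit of 2, a fold limit of 4 and a −log10 p limit of 5 the share differences were 40.3, 27.9 and 33.4 in LBH, 7.38, 4.46 and 8.56 in MEGF6 and 13.3, 2.50 and 10.0 in RNPEPL1. Reproducible TGFβ1 peaks that overlapped a control peak numbered 8 of 10 in LBH, 5 of 8 in MEGF6 and 9 of 9 in RNPEPL1. Since abutting peaks can overlap the same control peak, these lay over only 2, 2 and 6 control peaks. The share over the whole TGFβ1 list was not computed. In LBH 5 remained with an overlap of at least 0.5 of the shorter peak, 5 with a fold limit of 4 and 5 with a −log10 p limit of 5. In MEGF6 these limits for fold and p gave 3 and 0. The LBH sites of the control list fell to 1 under either limit, and those of MEGF6 to 1 and 0. The MEGF6 sites of the TGFβ1 list were 3 with the fold limit of 4. Replicate numbers are not stated to pair libraries, and the deviations of same-numbered libraries correlated at 0.078 over 597 sites. With the replicate block the differences were the same by construction (1.87, 1.60 and 1.07 in fold, 21.3, 2.65 and 6.67 points in share), with an exact sign-flip p of 0.5, the smallest it allows. Without read counts, depth limits cannot be given, and with 2 libraries per condition no difference could pass the exact permutation or sign-flip tests used.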
